A study of Mus musculus with 6 samples.

Results

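The Hox genes described here are 38 mouse genes of the 4 Hox clusters, chosen by the gene name of their probes on the array, out of 28034 genes named there. Cluster a held 10 of them, cluster b 10, cluster c 9 and cluster d 9. A probe carried the name of 37 members, 49 probes in all, and Hoxc11 was not analysed here. The tissue was anterior presomitic mesoderm together with somites I to IV, taken on embryonic day 9.5 from Paraxis-/- and from WT embryos, which the labels both assign to the strain C57BL/6J. Each genotype had 3 pools of 5 embryos, and each Paraxis-/- pool was hybridised with a WT pool on a pair of dye-swapped 2-colour Agilent arrays, which gave pairs A, B and C on 6 arrays. The labels give neither how the allele was made nor the somite number of the embryos, and pair A lay on slide 1 while pairs B and C lay on slide 2, so that slide and pair cannot be told apart between them.

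Hox genes encode homeodomain transcription factors that give cells along the head-to-tail axis their regional identity. Genes at the 3′ end of a cluster (low paralogue numbers) are switched on early and reach far forward, and genes at the 5′ end are switched on late and stay toward the tail, so the set of Hox genes that a piece of paraxial mesoderm expresses tells roughly which level of the body it comes from. In the paraxial mesoderm groups 5 and 6 act mainly in cervical and upper thoracic levels, group 10 suppresses ribs in the lumbar region, and group 11 patterns the sacrum. Paraxis, the product of Tcf15, is a basic helix-loop-helix transcription factor of the paraxial mesoderm that is needed for somites to become epithelial. The comparison asks whether the Hox genes of this tissue differed without it, and whether the pools came from like axial levels.

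The targeted gene checked the labels. Tcf15 had log2 levels of 9.81, 9.76 and 9.71 in the Paraxis-/- pools of pairs A, B and C, against 15.04, 15.23 and 15.23 in the WT pools. The log2 ratio of Paraxis-/- over WT was -5.41 (SE 0.09, n = 3 pairs, adjusted p = 0.000533 in limma). The position of its probe relative to the mutated part of the gene is not given in the sources used here. Levels are log2 intensities after normalization, and they are compared only within a probe. Between 28683 and 31795 of 43379 gene spots were well above background in the Paraxis-/- channels, against 27080 to 30982 in the WT channels. The number of pools limits the precision of every ratio below.

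Most of the Hox complement was measurable. Of the 38 members 32 passed the filter on dim probes, which asked for 4 or more of the 6 measurements in Paraxis-/- or in WT to lie well above background, and 31 of them were above background in all 12 measurements. The exception was Hoxd11, with 3 of 6 Paraxis-/- measurements and 5 of 6 WT measurements. The 5 members with a probe that did not pass were Hoxa13, Hoxb13, Hoxc12, Hoxc13 and Hoxd12, all of groups 12 and 13. Hoxb13 and Hoxc12 were above background in none of 12 measurements, Hoxc13 in 1 of 6 Paraxis-/- and 0 of 6 WT measurements, Hoxa13 in 3 and 1 and Hoxd12 in 3 and 3. Hox transcripts were thus measured from group 1 up to group 11, with Hoxd13 as the single member of group 13 above background in all 12 measurements. That rests on 1 of the 2 Hoxd13 probes, since the other was above background in 0 of 6 Paraxis-/- and 0 of 6 WT measurements. No Hox spot was saturated.

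No Hox gene passed the test after adjustment over all genes. With limma and Benjamini-Hochberg adjustment 0 of 32 members had an adjusted p under 0.05, and the smallest was 0.77, while 4 of 19335 genes (0.0207%) passed. At an unadjusted limma p under 0.05 there were 5 members of 32, beside 5.07% of all genes: Hoxd4 and Hoxb5 were higher, Hoxa11 and Hoxd10 were lower, and Hoxd11, which passed the filter only through WT, had no settled ratio. That count was 4 with all 6 measurements required, 3 without pair A, 10 without pair B, 8 with the 6 arrays fitted with the pair as a replicate block, and 11 with a slide term, which leaves only pairs B and C to give the spread. A ratio of the same sign in all 3 pairs was seen for 4 members on the higher side, beside 13.5% of all genes, and for 6 on the lower side, Hoxd11 among them, beside 12.2%. The pools of both genotypes did not overlap for Hoxd4 and Hoxd3 on the higher side, beside 3.06% of all genes, and for Hoxd10 and Hoxc10 on the lower side, beside 2.93%. The median log2 ratio over the 32 members was 0.003, and over all genes it was 0.004. In bulk tissue fewer cells of a type and less RNA per cell cannot be told apart.

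**Figure D1:**
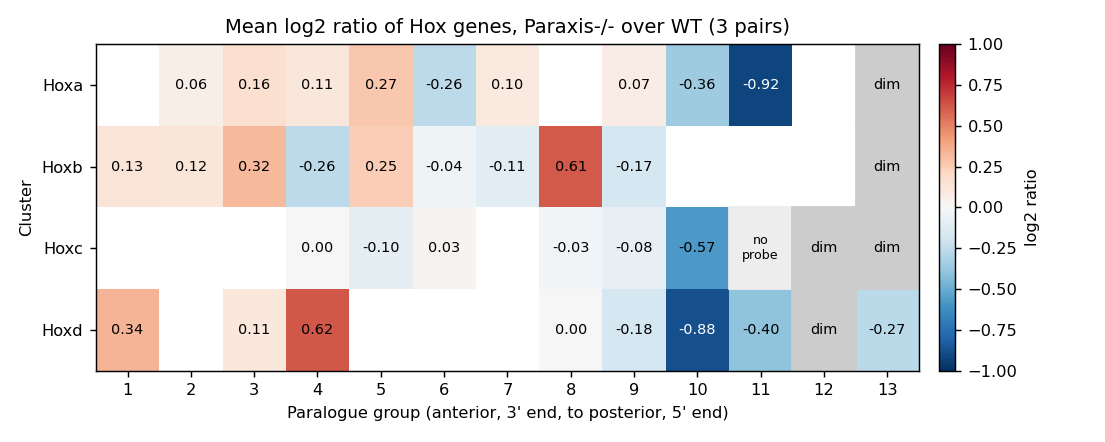
Mean log2 ratio of Paraxis-/- over WT over 3 pairs for each member, with clusters down the page and paralogue groups across. Blue is lower and red is higher in Paraxis-/-. Grey cells marked dim did not pass the filter on dim probes, the cell marked no probe is Hoxc11, and blank cells hold no member. The 6 cells with a value in groups 10 to 13 are all negative, from -0.27 to -0.92, the Hoxd11 cell resting on a probe above background in only 3 of 6 Paraxis-/- measurements, and no gene in the grid passed the adjusted test.

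Taken by cluster, the Hox genes had medians near 0. The median log2 ratio was 0.07 over the 9 measured members of cluster a, 0.12 over 9 of cluster b, -0.06 over 6 of cluster c and -0.09 over 8 of cluster d. The cluster d medians include Hoxd11, which passed the filter only through WT. With all 6 measurements of a genotype required, which leaves Hoxd11 out, the cluster d median was 0.005. For clusters a to d the medians taken within each pair had SDs of 0.14, 0.13, 0.08 and 0.15 between the pairs. Each SD was larger than the distance of that cluster's median of mean ratios from 0. In pair A the medians were 0.21, 0.19, -0.08 and 0.13 in the same order of clusters, in pair B 0.01, -0.03, -0.002 and 0.04, and in pair C -0.05, -0.03, -0.15 and -0.17. Hoxd lies on chromosome 2, the chromosome of Tcf15, with 77.4 Mb between the Tcf15 probe and the nearest Hoxd probe, and its median did not differ from 0 by more than its spread between pairs.

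Sorted by paralogue group, mean ratios were mostly above 0 in the low groups and below 0 in the high groups. In groups 1 to 4, the genes with the most anterior limits, 10 of 11 mean ratios were above 0, beside 51.6% of all genes, with a median of 0.12. By pair their medians were 0.25, -0.03 and 0.17, and in pair B 6 of the 11 ratios were below 0. These counts use the brightest probe of each gene. The other probes of these genes had mean ratios of -0.32 (Hoxb2, on the opposite strand), -0.06 (Hoxb3), -0.03 (Hoxa4), 0.04 (Hoxa3) and 0.01 (Hoxd3). In groups 5 to 7 the median was -0.01 over 8 genes, in groups 8 and 9 it was -0.03 over 7 genes, and in groups 10 to 13 it was -0.57 over the 5 of 12 genes above background in all 12 measurements, or -0.49 with Hoxd11. The border at group 10 was set after the values had been seen, so these medians are a description. Hoxd11, kept by the genotype in which it was higher, is left out of the counts that follow.

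**Figure D2:**
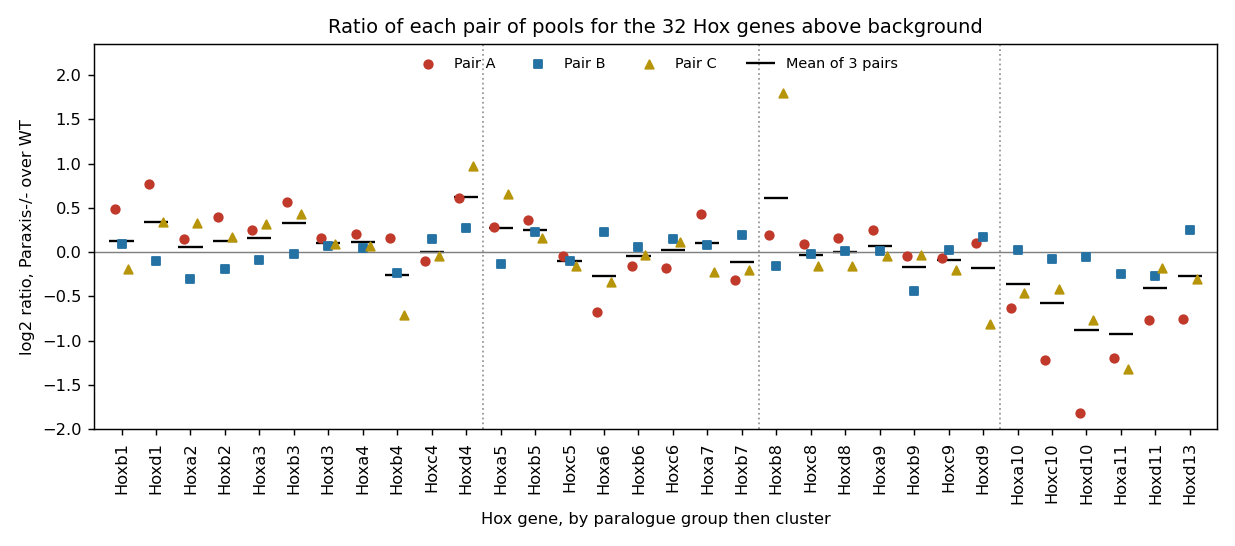
Log2 ratio of Paraxis-/- over WT in each pair for the 32 members above background, ordered by paralogue group; circles, squares and triangles are pairs A, B and C, black bars are means, and dotted lines separate groups 1 to 4, 5 to 7, 8 to 9 and 10 to 13. On the right the circles of pair A lie between -0.63 and -1.81 and the triangles of pair C between -0.18 and -1.32, while the squares of pair B stay between -0.26 and 0.25.

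The ratios of these 5 genes were more negative in pairs A and C than in pair B. In pair A all 5 were below -0.3, beside 9.82% of all genes, in pair B 0 were, beside 2.4%, and in pair C 5 were, beside 7.65%. Below 0 there were 5, 3 and 5 genes, and the medians were -1.20, -0.05 and -0.47 in the 3 pairs. The Paraxis-/- pool of pair A had the lowest level of all 6 pools for 5 of 5 genes, beside 19.9% of all genes, and the WT pool of pair C had the highest for 4 of 5, beside 14.5%. Without pair A the median of the 5 genes was -0.25, and without pair B it was -0.82.

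Group 10 restrains rib formation in lumbar segments, and its 3 paralogues all had their lowest ratio in pair A and their highest in pair B. Hoxd10 had log2 levels of 7.53, 9.03 and 8.67 in the Paraxis-/- pools of pairs A, B and C, against 9.35, 9.08 and 9.44 in the WT pools. All Paraxis-/- pools lay below all WT pools, with a gap of 0.05 between the pools of pair B, which were the nearest. The ratios were -1.81, -0.05 and -0.77 in pairs A, B and C. The mean log2 ratio was -0.88 (SE 0.33, 1.84-fold lower, unadjusted p = 0.0468, adjusted p = 0.949 in limma), and without pair A it was -0.41.

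Hoxc10 had levels of 8.65, 9.41 and 9.47 in the Paraxis-/- pools, against 9.87, 9.5 and 9.89 in the WT pools. Here too the genotypes did not overlap, with a gap of 0.02 between the highest Paraxis-/- pool and the lowest WT pool. The mean log2 ratio was -0.57 (SE 0.23, adjusted p = 0.949 in limma), and without pair A it was -0.25. Another Hoxc10 probe gave ratios of -0.64, -0.09 and -0.29 in pairs A, B and C, the same signs as the -1.22, -0.08 and -0.41 of the probe used, whose dye-swapped arrays in pair A read -0.72 and -1.72.

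Hoxa10 had levels of 8.68, 9.61 and 9.60 in the Paraxis-/- pools, against 9.31, 9.58 and 10.07 in the WT pools. The genotypes overlapped, since both Paraxis-/- pools of slide 2 lay above 2 of the WT pools. Its mean log2 ratio was -0.36 (SE 0.14, unadjusted p = 0.054, adjusted p = 0.949 in limma), without pair A it was -0.22, and without pair B it was -0.55.

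Group 11 patterns the sacral vertebrae and, later, the zeugopod of the limb and the kidney. Hoxa11 had the most negative mean ratio of all measured members, -0.92 (SE 0.23, 1.89-fold lower, unadjusted p = 0.00984, adjusted p = 0.813 in limma). Its levels were 7.11, 8.59 and 7.88 in the Paraxis-/- pools, against 8.31, 8.84 and 9.20 in the WT pools. The ratio was negative in each of the 3 pairs, at -1.20, -0.25 and -1.32, and both dye-swapped arrays of each pair agreed to within 0.16. The genotypes overlapped all the same, because the WT pool of pair A lay below the Paraxis-/- pool of pair B.

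Hoxd11 was dim, with levels of 6.05, 6.25 and 6.59 in the Paraxis-/- pools, against 6.82, 6.52 and 6.76 in the WT pools. It was above background in 3 of 6 Paraxis-/- and 5 of 6 WT measurements, so no test is given, and its mean log2 ratio moved with the processing, at -0.40 here, -0.22 without pair A and -1.42 with Agilent's processed signals. Hoxd13, which acts in the tail bud, the limb and the urogenital tract, had levels of 6.66, 7.17 and 6.99 in the Paraxis-/- pools, against 7.41, 6.92 and 7.30 in the WT pools. Its pairs differed in sign, and the mean log2 ratio was -0.27 (SE 0.20, adjusted p = 0.953 in limma).

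**Figure D3:**
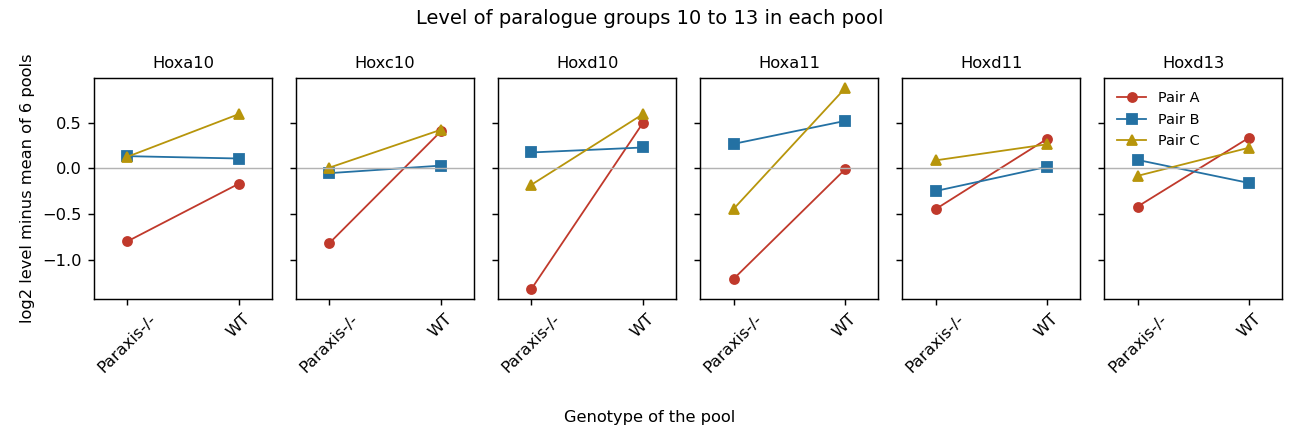
Log2 level of the 6 measured genes of groups 10 to 13 in each pool, minus the gene's mean over the 6 pools, with Paraxis-/- at the left and WT at the right of each panel and a line joining the pools of a pair. The Paraxis-/- pool of pair A is the lowest point in all 6 panels, and the lines of pair B are the flattest in the panels of group 10.

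At the other end of the clusters most mean ratios were small and above 0. Hoxd4, which patterns the upper cervical vertebrae, had levels of 14.33, 13.83 and 14.58 in the Paraxis-/- pools, against 13.72, 13.55 and 13.61 in the WT pools. Every Paraxis-/- pool lay above every WT pool. The mean log2 ratio was 0.62 (SE 0.14, 1.54-fold higher, unadjusted p = 0.00792, adjusted p = 0.77 in limma). Of its paralogues Hoxa4 had a mean ratio of 0.11, Hoxb4 of -0.26 and Hoxc4 of 0.002. Hoxb4 was the one negative gene of groups 1 to 4, with 10.74, 9.79 and 9.35 in the Paraxis-/- pools, against 10.58, 10.03 and 10.05 in the WT pools.

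Hoxb3, a group 3 gene of the neck and hindbrain, had levels of 11.22, 11.34 and 11.78 in the Paraxis-/- pools, against 10.65, 11.37 and 11.35 in the WT pools. The WT pool of pair A was the lowest of the 6, and the ratio of 0.32 (SE 0.13, adjusted p = 0.949 in limma), which was 0.20 without pair A, stood beside another Hoxb3 probe, which had 0.01, -0.12 and -0.08 in pairs A, B and C. Hoxd1 had ratios of 0.77, -0.10 and 0.34, and for it too the WT pool of pair A was the lowest, at 9.32 among levels of 9.93 to 10.45 in Paraxis-/- and up to 10.11 in WT. Hoxd3 had the tightest levels of its cluster, 9.23, 9.11 and 9.19 in the Paraxis-/- pools, against 9.07, 9.04 and 9.10 in the WT pools, a mean log2 ratio of 0.11 (SE 0.07, adjusted p = 0.951 in limma). Its genotypes were kept apart by a gap of only 0.007. The other Hoxd3 probe, with overlapping pools, had ratios of 0.14, -0.07 and -0.02 in pairs A, B and C.

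Promoters are shown for the 3 members with the largest mean ratios in either direction among the 5 at an unadjusted p under 0.05, with the E-box, the CANNTG motif that basic helix-loop-helix factors such as Paraxis bind, in capitals. They are RefSeq sequences of 300 bases, 250 before to 50 after the start, in build GRCm38.p6, and 22 of the 38 members had such an entry, some with more than 1 start.
Hoxa11 (chr6:52245761-52246060, minus strand): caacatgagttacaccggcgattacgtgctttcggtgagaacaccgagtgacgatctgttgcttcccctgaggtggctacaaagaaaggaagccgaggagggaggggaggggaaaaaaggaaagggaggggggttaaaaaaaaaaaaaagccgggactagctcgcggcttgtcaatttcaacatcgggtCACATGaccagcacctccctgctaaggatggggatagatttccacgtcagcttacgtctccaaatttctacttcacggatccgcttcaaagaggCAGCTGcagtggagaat
Hoxd10 (chr2:74691641-74691940, plus strand): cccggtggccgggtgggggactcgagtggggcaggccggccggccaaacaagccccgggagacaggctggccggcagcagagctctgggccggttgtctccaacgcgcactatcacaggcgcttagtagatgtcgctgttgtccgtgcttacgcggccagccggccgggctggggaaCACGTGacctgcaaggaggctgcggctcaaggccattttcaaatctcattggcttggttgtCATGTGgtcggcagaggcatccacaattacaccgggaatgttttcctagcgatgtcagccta
Hoxd4 (chr2:74721728-74722027, plus strand): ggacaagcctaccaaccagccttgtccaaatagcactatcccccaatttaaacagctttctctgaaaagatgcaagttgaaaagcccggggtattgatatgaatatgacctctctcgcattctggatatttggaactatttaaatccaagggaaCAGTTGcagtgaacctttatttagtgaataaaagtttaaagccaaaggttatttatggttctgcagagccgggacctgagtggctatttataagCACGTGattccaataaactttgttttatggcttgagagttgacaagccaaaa
Each of the 3 held 2 E-boxes. Over both strands an E-box was found in 17 of the 24 promoter entries of members and in 72.3% of 32817 mouse promoters of that length. The Cdx motif TTTATNG had 3 matches in the Hoxd4 promoter and none in the other 2 shown, and 10.9% of all promoters held it. The Hox and Pbx motif TGATNNAT was in none of the 3, and 8.86% of all promoters held it. No match overlapped a match to another of these motifs. A match describes these letters in this window and says nothing of whether a factor binds there.

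Groups 5 to 9 act from the neck down through the thoracic levels. Hoxb5 was higher in each of the 3 pairs, with levels of 11.38, 10.93 and 10.89 in the Paraxis-/- pools, against 11.01, 10.71 and 10.74 in the WT pools. Its mean log2 ratio was 0.25 (SE 0.08, unadjusted p = 0.022, adjusted p = 0.933 in limma). The pools of the genotypes overlapped, since the WT pool of pair A lay above both Paraxis-/- pools of slide 2. Hoxa5 had ratios of 0.28, -0.13 and 0.66, and Hoxc5, lower in each pair, had -0.04, -0.10 and -0.16.

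Groups 8 and 9 continue through the thorax. Hoxc8 varied least of the measured members, by 0.16 over all 6 pools. Hoxc9 had 14.29, 14.48 and 14.49 in the Paraxis-/- pools, against 14.36, 14.46 and 14.69 in the WT pools, and its mean ratio of -0.08 (SE 0.08) turned to 0.03 when each array was centred on its median in place of loess. Hoxb9 had 14.57, 14.26 and 14.43 in the Paraxis-/- pools, against 14.61, 14.71 and 14.46 in the WT pools, a mean ratio of -0.17 (SE 0.11, adjusted p = 0.951 in limma), which was -0.04 without pair B.

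Hoxb8 varied more than any other member within a genotype. It had 11.29, 9.88 and 11.54 in the Paraxis-/- pools, against 11.09, 10.04 and 9.74 in the WT pools, ranges of 1.65 and 1.35. Nearly all of its mean log2 ratio of 0.61 (SE 0.39, adjusted p = 0.953 in limma) came from pair C, where both dye-swapped arrays read 1.74 and 1.86. The other Hoxb8 probe had 0.02, 0.10 and 0.34 in pairs A, B and C, the highest again in pair C but far smaller. Without pair C the mean ratio of the probe used was 0.02.

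Pool levels were then used to place the pools along the axis. For each pool the median centred level of groups 1 to 4 was subtracted from that of groups 8 to 13, so that a positive index stands for a set of Hox transcripts shifted toward the posterior genes. The index was -0.33, 0.13 and -0.26 in the Paraxis-/- pools of pairs A, B and C, against 0.11, -0.01 and 0.26 in the WT pools. The genotypes overlapped, since the Paraxis-/- pool of pair B had the second highest index of the 6 pools. As a contrast of ratios within each pair, groups 8 to 13 minus groups 1 to 4 gave -0.32, 0.004 and -0.37, a median-based value of -0.30 over the pairs with an SD of 0.20. Without pair B that value was -0.59, and with no filter on dim probes it was -0.18. Hoxd11 is included in these values. With Hoxd11 left out by requiring all 6 measurements of a genotype, the index was -0.32, 0.15 and -0.26 in the Paraxis-/- pools. The WT pools then had 0.10, 0.003 and 0.26, and the contrast of ratios was -0.30.

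By the median of each band, the pools were farthest apart in the genes of groups 10 to 13. Their median centred level was -0.81, 0.11 and -0.04 in the Paraxis-/- pools, against 0.33, 0.07 and 0.51 in the WT pools, and without Hoxd11 it was -0.82, 0.13 and -0.08 in the Paraxis-/- pools, against 0.34, 0.11 and 0.59 in the WT pools. For groups 8 and 9 the medians of all 6 pools lay between -0.08 and 0.06. Single genes of that band spread more, Hoxb8 from -0.86 in the WT pool of pair C to 0.94 in its Paraxis-/- pool. For groups 1 to 4 the medians were 0.16, -0.11 and 0.19 in the Paraxis-/- pools, against -0.10, 0.04 and -0.02 in the WT pools. The pools of pair B thus lay within 0.15 of each other in every band, and the pools of pairs A and C were 1.14 and 0.54 apart in groups 10 to 13.

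**Figure D4:**
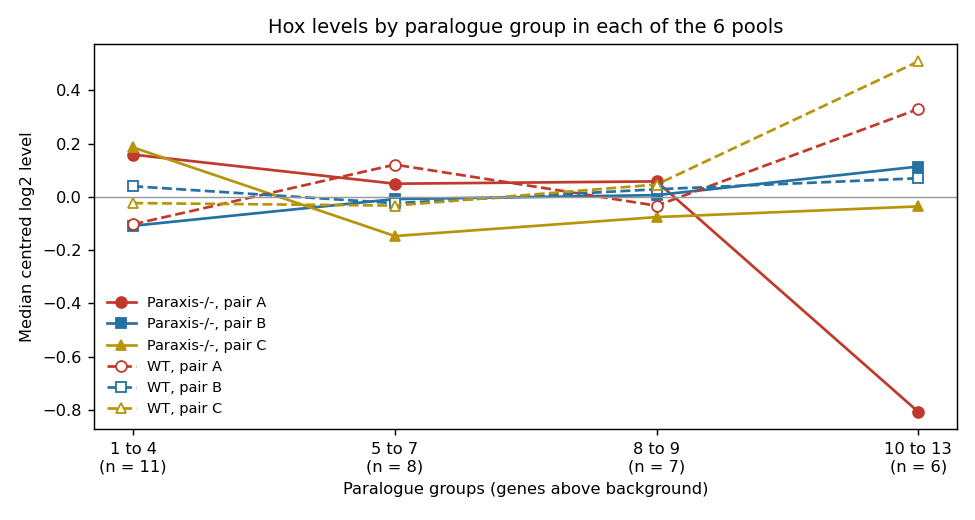
Median centred log2 level of the measured Hox genes in 4 bands of paralogue groups, 1 line per pool (solid with filled symbols for Paraxis-/-, dashed with open symbols for WT). The 6 lines run close together up to groups 8 and 9 and spread in groups 10 to 13, from -0.81 in the Paraxis-/- pool of pair A to 0.51 in the WT pool of pair C.

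Markers of the tailbud differed most in pair A. The 9 genes of posterior presomitic mesoderm and tailbud, which include the Cdx genes, known activators of Hox genes, had median log2 ratios of 1.22, -0.44 and 0.28 in pairs A, B and C, and 0 of 9 had an unadjusted limma p under 0.05. The log2 of their summed intensity was 14.38, 13.20 and 13.15 in the Paraxis-/- pools, against 12.30, 13.65 and 13.44 in the WT pools, and all 9 were above background in all 12 measurements. Cdx2 had ratios of 3.11, -0.51 and -0.82 in pairs A, B and C, and T, the Brachyury gene, had 1.44, -0.34 and 0.39. Tbx6, a presomitic mesoderm gene, had ratios of 2.43, -0.59 and 0.22. In pair A the Paraxis-/- pool thus had the highest tailbud level and the lowest level of groups 10 to 13 of the 6 pools.

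Lists for other tissues also differed between the pairs. The 9 measured of 10 neural tube genes had medians of -0.29, 0.16 and 0.21, with summed levels of 13.73 to 14.02 in Paraxis-/- and 13.64 to 14.41 in WT pools, the highest in the WT pool of pair A. Of these Zic1 had -2.43, 0.325 and 0.11 in pairs A, B and C, and Dbx1 had -2.12, 1.08 and 1.31. In pair A 7 of the 9 ratios were below 0, and in pairs B and C 0 were. Others of the list were near 0 in pair A, such as Sox2 at -0.09, Irx3 at 0.02 and Sox1 at 0.06. The 5 surface ectoderm genes had medians of 0.92, -0.02 and 0.13, with summed levels of 14.81 to 15.13 in Paraxis-/- and 14.14 to 14.85 in WT pools. The 5 blood genes had 0.19, 1.14 and -0.06, with 17.10 to 17.72 in Paraxis-/- and 16.30 to 17.12 in WT pools. The 8 measured lateral plate, limb and nephric genes, tissues that also express 5′ Hox genes, had 0.19, 0.08 and 0.06, with 12 to 12.18 in Paraxis-/- and 11.77 to 11.93 in WT pools. Of these Tbx5, a gene of the forelimb field and heart, had 0.61, 0.38 and 0.52 (adjusted p = 0.473 in limma). The 4 gut endoderm genes had 0.29, 0.002 and 0.38, with 10.90 to 11.20 in Paraxis-/- and 10.61 to 10.83 in WT pools. The summed levels of the genotypes did not overlap for this list or for the lateral plate, limb and nephric list. Nor did they for the paraxial mesoderm list described below, with 15.69 to 16.14 in Paraxis-/- and 16.67 to 16.72 in WT pools. No share over all genes is given for summed levels. The 4 endothelial genes had -0.27, 0.14 and 0.26, with 11.19 to 11.93 in Paraxis-/- and 11.40 to 11.61 in WT pools. All measured genes of these lists were above background in all 12 measurements. The part of tissue composition and of the level of the cut in the Hox ratios was not tested.

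**Figure D5:**
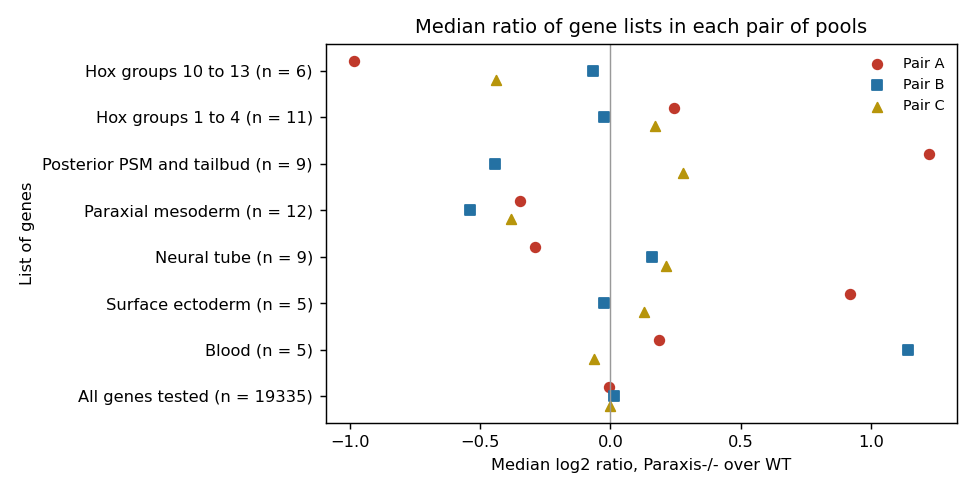
Median log2 ratio of Paraxis-/- over WT in pairs A (circles), B (squares) and C (triangles) for Hox groups and for lists of marker genes, with the number of genes tested beside each name. Pair A has the most negative median for Hox groups 10 to 13 (-0.98 over 6 genes, Hoxd11 included) and the most positive for the tailbud list (1.22), and all genes together sit at 0.

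Of the paraxial mesoderm list, which includes Tcf15, 12 of 13 genes were measured, all above background in all 12 measurements. Ratios between genotypes cannot show which tissue was taken, so the tissue label was not tested. At an unadjusted limma p under 0.05 there were 7 lower genes of 12 and 0 higher, beside 2.73% and 2.34% of all genes, and 1 of them, Tcf15 itself, had an adjusted p under 0.05, beside 0.0207%. Meox2, a homeobox gene of the somite, had a mean ratio of -1.59 (SE 0.15, adjusted p = 0.187 in limma), and Uncx, a gene of the posterior somite compartment, had -0.78 (SE 0.08, adjusted p = 0.246). Both were negative in all 3 pairs, pair B included. Of the 12 mean ratios 3 were above 0, those of Tbx6 at 0.69, Meox1 at 0.24 and Msgn1 at 0.12.

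Genes that work with the Hox proteins or control the clusters had no member past the adjusted threshold with pairs as replicates. With the 6 arrays and a replicate block 1 passed (Aldh1a2, adjusted p = 0.00586 in limma), and with a slide term 2 did (Aldh1a2, adjusted p = 0.045, and Cdx2, adjusted p = 0.0258). Cdx2 was higher in pair A only, at 3.11, and had -0.51 and -0.82 in pairs B and C. Of the 9 TALE homeodomain cofactors of the Pbx, Meis and Pknox families, which bind DNA together with Hox proteins, 0 had an unadjusted limma p under 0.05, and the mean ratios lay between -0.21 (Meis1) and 0.08 (Pknox1). Of 22 measured upstream regulators 2 were lower at an unadjusted p under 0.05 and 0 higher, beside 2.73% and 2.34% of all genes. They were Aldh1a2, which makes retinoic acid, with -1.06, -0.79 and -0.60 in pairs A, B and C (adjusted p = 0.359 in limma), and Acvr2b, a receptor for Gdf11, with -0.46, -0.43 and -0.25 (adjusted p = 0.622). Gdf11 itself, a ligand that promotes the switch to posterior Hox genes, had a mean ratio of -0.03. At an unadjusted limma p under 0.05, 1 of 24 Polycomb and Trithorax genes was lower and 0 were higher. It was Bmi1, at -0.53 (adjusted p = 0.933 in limma). Of 12 measured neighbours of the clusters 1 was higher at that threshold and 0 lower, Skap2 at 0.23 (adjusted p = 0.948 in limma). The shares over all genes were 2.73% lower and 2.34% higher.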

How the data were processed

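Per the labels, RNA (250 ng, integrity number 7.9 or higher) was labelled with Cy3 or Cy5, and the 3 pools of a genotype are separate biological replicates, so p-values measure the spread between pools. The deposited scanner files hold spot intensity from Agilent Feature Extraction (per the file headers 10.7.3.1 on slide 1 and 10.5.1.1 on slide 2, and 8.5.1.1 per the submitters' processing notes). The deposited series matrix holds the authors' log10 ratio of Cy5 over Cy3, which differed from that in the scanner files by at most 5e-11, with a median of 0 on every array, so its scale and direction are known.

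Median spot and background intensities (means are not in the columns used for slide 2) were corrected with normexp (offset 50) and loess, using limma (version 3.58.1) and R (version 4.3.3). Control spots had no weight and outlier spots were left out. Every ratio is Paraxis-/- over WT, and a pair is the mean of its dye swaps, both arrays being required. Levels are log2 values after Aquantile, the mean of the 2 channels of a pool. A gene is its brightest kept probe, and 28637 of 41174 probes were kept. The fit covered 19335 genes, 73 of them with fewer than 3 pairs, and Benjamini-Hochberg adjustment ran over all of them with a threshold of 0.05, two-sided. The pairing came from the titles, which differ from the descriptions on 2 arrays. Arrays of a pair, as deviations from the mean of their dye orientation, correlated across genes at 0.38, 0.62 and 0.61, and other combinations lay between -0.42 and -0.06.

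The members and all lists were chosen with earlier results of these data known. Values by pool are given for members at an unadjusted p under 0.05, up to 3 members a cluster with the smallest p and the member of each cluster that spread most, and of the other lists some of the 3 with the smallest p. Hoxb4, Hoxc8, Hoxd1, Hoxd3, Hoxd13, Cdx2, Tbx6, Dbx1 and Gdf11 were added after their values were seen. The fit was tested on simulated data. Coordinates of probes are mm9, per the file headers, without annotation of exons or untranslated regions. RefSeq names were found for 26690 probes through the accession, for 5189 through the symbol and for 952 through a synonym; the remaining 8343 have their deposited names. A comparison of probe sequences is not reported here.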

Additional observations from a re-analysis of the deposited data

How the results depend on the processing

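In all 17 alternatives tried 0 Hox genes had an adjusted p under 0.05 in limma, while the smallest Hox value ranged from 0.0722 to 0.992 and the genes called in all from 0 to 91. Not all of these are separate checks: slide 2 alone is the same fit as leaving out pair A, and the series matrix ratios gave the same values as Agilent's processed signals. The count of Hox genes at an unadjusted p under 0.05, 5 as reported, was 8 with the 6 arrays fitted with a replicate block, 9 with no replicate block and 11 with slide as a block, and 3 to 10 when 1 pair was left out. Cofactors and regulators past the adjusted threshold numbered 1 with the replicate block, 1 without it and 2 with slide as a block, against 0, and at an unadjusted p 7, 9 and 15, with 3 to 8 when 1 pair was left out. The cluster b median was -0.0549 when the probes of a gene were averaged, and the cluster d median ranged from -0.18 to 0.10 over left-out pairs. With all 6 measurements of a genotype required, which leaves out Hoxd11, the cluster d median was 0.005. Groups 8 to 13 minus groups 1 to 4 ranged from -0.59 to -0.28 over left-out pairs and was -0.18 with no filter on dim probes. The groups 10 to 13 median, with a border chosen after seeing the data, lay between -0.88 and -0.23 in all 18 alternatives. Both include Hoxd11, except where every measurement, or all 6 of a genotype, had to be above background. The -0.88 came with Agilent's processed signals, where Hoxd11 had -1.42. With Hoxd11 left out the groups 10 to 13 median was -0.57, and -0.25 without pair A. Hoxc9 turned to 0.0267 (adjusted p = 0.944) with median centring. The axial index of the WT pools was 0.29 in pair A and 0.41 in pair C with Agilent's processed signals, and that of the Paraxis-/- pool of pair A was -0.59 with groups 9 to 13 minus groups 1 to 5. The replicate block and the slide term take their spread from arrays and from pairs B and C, and the causes of the other shifts were not tested. Dimness limits Hoxd11, and the 5 members with a probe that did not pass the filter have no ratio in the fit as reported.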

Other observations

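Transcripts other than the Hox messages lie within the clusters. The probe named Hoxaas3 (mm9 chr6:52160704-52160763) is placed on the minus strand, that of the Hoxa genes, between the probes of Hoxa6 and Hoxa7. It had log2 levels of 8.66, 9.37 and 9.36 in the Paraxis-/- pools of pairs A, B and C, against 9.60, 9.41 and 9.47 in the WT pools. Its ratios were -0.95, -0.04 and -0.12, with the Paraxis-/- pool of pair A the lowest of all 6, which held for 19.9% of all genes. Among the members that pool was lowest for 0 of 11 in groups 1 to 4 and 2 of 8 in groups 5 to 7. It was lowest for 1 of 7 in groups 8 to 9 and for 6 of 6 in groups 10 to 13, Hoxd11 included. Hoxa6, whose probe lies beside that of Hoxaas3, was among them, with a ratio of -0.68 in pair A. Hoxd3os1, an opposite-strand transcript at Hoxd3, had ratios of 0.19, 0.09 and 0.04, near the 0.16, 0.06 and 0.09 of Hoxd3. A transcript of cluster a known here only by its Ensembl identifier (chr6:52119107-52119166, plus strand, opposite to the Hoxa genes) had 0.37, 0.10 and 0.02. Evx1, a homeobox gene beside the 5′ end of cluster a, had 0.93, -0.21 and -0.05, and Evx2, beside Hoxd13, had -0.01, -0.13 and -0.01.

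Probes that carry the same Hox name did not always give like ratios. A probe named Hoxb2 (chr11:96211860-96211919) lies on the minus strand, opposite to the Hoxb genes, and had 0.18, -0.45 and -0.69 in pairs A, B and C, whereas the Hoxb2 probe on the plus strand had 0.39, -0.19 and 0.17. The 2 Hoxb9 probes had -0.04, -0.44 and -0.03 for the probe used and 0.22, 0.21 and -0.50 for the other. The 2 Hoxd9 probes were both negative in pair C, at -0.81 and -0.49. Over the members the median absolute gap between dye-swapped arrays was 0.20, against 0.17 over all genes.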
